A study of Mus musculus with 6 samples.

Results

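Genes of the proteasome were followed in liver RNA from mice with and without induced lipophagy. The members were taken by name, as every row of the deposited table whose symbol starts with Psma, Psmb, Psmc, Psmd, Psme, Psmf or Psmg, which gave 50 of 24346 rows. The family and the gene lists set beside it were chosen with earlier results of these data known. The immunoproteasome subunits Psmb8, Psmb9 and Psmb10 were kept apart from the rest. Of the 50 rows, 48 reached a mean of 0.5 FPKM (fragments counted relative to transcript length and library size) over the 6 livers and were tested. The 2 rows below this level were Psmb11, the catalytic subunit of the thymus, which was listed at 0 FPKM in all 6 livers, and Psme2b, a copy of the activator gene Psme2, at 0.231 to 0.459 FPKM. A further pair of tested rows was set aside: Psma8, an alpha subunit of testis, and Psmc3ip, which carries the name but encodes a protein of meiotic recombination and is no proteasome subunit. This left 43 members, called constitutive here, and 3 immunoproteasome subunits. The name is used for all remaining rows, so it also covers the assembly chaperones, the inhibitor Psmf1 and the interferon-inducible activators Psme1 and Psme2.

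Male C57BL/6J mice aged 8 weeks were given CDAHFD, a high-fat diet of defined amino acids without choline, for 6 weeks to produce nonalcoholic steatohepatitis, then received a virus and normal chow and were analysed 2 weeks later. All animals carried an adeno-associated virus of serotype AAV8 with the liver-specific pTBG promoter, so that expression was directed to hepatocytes. In the lipophagy group (3 livers) the virus encoded LDTS-eLIR, a lipid droplet-targeting sequence of perilipin fused with an engineered LC3-interacting region. In the control group (3 livers) it encoded LDTS-LIR mut, in which the LC3-interacting region was mutated. Both groups thus carried the droplet-targeting part, which the study describes as mildly lipogenic. Labels do not say more of the animals than the group and a number, and whole liver was extracted, so that fewer cells of a type and less RNA per cell cannot be told apart.

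The proteasome is the protease that breaks down proteins tagged with ubiquitin in the cytosol and nucleus. Its barrel, the 20S core, is built from outer alpha rings that gate the entry and inner beta rings that carry the proteolytic sites in Psmb5, Psmb6 and Psmb7. The 19S cap binds ubiquitin chains and unfolds the substrate with a ring of ATPases. Under interferon the catalytic subunits are replaced by Psmb8, Psmb9 and Psmb10 to form the immunoproteasome, which favours peptides for MHC class I. Immune cells hold the immunoproteasome at rest, and other cells acquire it under interferon. Transcription of the constitutive genes is known to be raised together by NFE2L1 (also called NRF1) through antioxidant response elements when proteasome capacity falls short.

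Promoter sequence was read from the RefSeq table of GRCm38.p6, the build that matches mm10, which is listed in the submitters' processing notes. Of the 50 rows, 42 had a window there. The 250 bases before each start were searched on both strands for the antioxidant response element core TGACNNNGC, which NFE2L1 and NFE2L2 bind with small MAF proteins, and for the gamma-activated site TTCNNNGAA, the interferon-stimulated response element core (GAAA, any 2 bases, GAAA) and the CCAAT box. The core TGACNNNGC was in 5 of 39 windows of constitutive members (12.8%), against 10.2% of all 32851 windows, so its share among the constitutive genes lay near that of any promoter. The 5 matches are given within 30 bases, in the direction of the gene and with the match in capitals, because these genes include the catalytic subunits Psmb5 and Psmb6. The third, Psmb7, was among the 8 rows without a window and was not searched. In Psmc6 and Psmd12 the core lies on the other strand.
Psmb5: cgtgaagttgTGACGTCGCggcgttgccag
Psmb6: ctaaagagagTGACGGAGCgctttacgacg
Psmc6: ccagccagtaGCTAAGTCAggcattgctca
Psmd9: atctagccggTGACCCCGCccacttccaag
Psmd12: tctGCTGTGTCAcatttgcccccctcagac
The core began 47 bases before the start of Psmb5 (chr14:54618023-54618052, minus strand, for the bases shown), 9 before that of Psmb6 (chr11:70525338-70525367, plus strand), 227 before that of Psmc6 (chr14:45329587-45329616, plus strand), 31 before that of Psmd9 (chr5:123228149-123228178, plus strand) and 247 before that of Psmd12 (chr11:107479278-107479307, plus strand).

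Among the immunoproteasome subunits, the window of Psmb8 held a gamma-activated site and that of Psmb9 a CCAAT box on the other strand, and the window of Psmb10 held none of the motifs searched. Both matches are shown because these subunits are the ones that interferon induces.
Psmb8: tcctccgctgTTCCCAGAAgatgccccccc
Psmb9: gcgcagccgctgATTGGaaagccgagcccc
Starts are those of RefSeq. Except for Psmb6, the starts of the genes shown lie inside the gene spans of GENCODE, and the stretches of Psmb8, Psmb9 and Psmd9 fall within the annotated gene. The windows of Psmb5, Psmb8, Psmb9, Psmc6 and Psmd12 overlap annotated exons. The site of Psmb8 began 97 bases before its start (chr17:34198088-34198117, plus strand, for the bases shown), and the box of Psmb9 began 8 bases before its start (chr17:34187321-34187350, minus strand). Gamma-activated sites were in 7.02% of all windows and in 2.56% of the constitutive windows, where Psmg1 had the single match. CCAAT boxes were in 33.8% of all windows and in 30.8% of the constitutive ones. The interferon-stimulated element core was in 2.98% of all windows and in 7.69% of the constitutive ones (Psmb3, Psmd4 and Psmd9). Psmb8 (34197721 to 34201454) and Psmb9 (34181987 to 34187764) lie near each other on chromosome 17, and exons of Psmb9 and of Tap1, a peptide transporter gene read in the opposite direction, overlap in the GENCODE annotation. Psmd9 is the assembly chaperone with the largest log2 change of the constitutive genes, so the full 250 bases before its start are given (chr5:123227940-123228189, plus strand), with the interferon-stimulated element core and the antioxidant response element core in capitals.
Psmd9: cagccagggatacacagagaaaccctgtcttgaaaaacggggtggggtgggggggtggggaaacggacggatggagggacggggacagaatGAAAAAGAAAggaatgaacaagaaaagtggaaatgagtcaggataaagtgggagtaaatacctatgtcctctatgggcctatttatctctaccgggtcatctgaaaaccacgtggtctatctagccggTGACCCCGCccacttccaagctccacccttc

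The depth behind each value is unknown, since FPKM values carry no counts and only 26.5% to 56.1% of low values in a liver lay on the steps that whole fragments would give. The deposited FPKM values summed to 622696, 657300 and 681138 in control livers 1, 2 and 3 and to 782392, 734436 and 709993 in lipophagy livers 1, 2 and 3, so that the sum was higher in each lipophagy liver. For this reason the direction of each role group and gene list is also given after scaling all livers to the same FPKM sum, an alternative chosen after seeing the data, and after quantile normalization. The 16 hepatocyte marker genes found in the table summed to 78849 to 86824 FPKM in control livers and 94691 to 123481 FPKM in lipophagy livers, with 15 of 16 higher on average and none listed at 0 in all livers. With the same sum 12 of 16 were above 0 and with quantile normalization 11 of 16. Their part in the levels of proteasome genes was not tested. The 21 leukocyte markers summed to 768 to 979 FPKM in control livers and 732 to 876 FPKM in lipophagy livers. Of the 17 tested, 13 were lower on average, where 54.5% of all tested genes had a log2 change above 0. Of the T cell genes, Cd3e, Cd8a and Cd8b1 were below the level tested and Cd3g averaged 1.12 FPKM in control and 1.10 FPKM in lipophagy livers, and the T cell cytokine Ifng was listed at 0 in 4 of 6 livers.

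Levels differed between role groups and within them. The beta ring had the highest levels per length, with a median over its 7 genes of 179 FPKM and a range of 124 to 211 FPKM. The 7 constitutive alpha ring genes lay between 68.9 FPKM (Psma5) and 177 FPKM (Psma4). The 19S ATPases (median 74.6 FPKM) and the 19S non-ATPases (median 54.9 FPKM, range 34.6 to 127 FPKM) were lower, and the assembly chaperones were lower again (median 19.6 FPKM, range 8.61 to 25.8 FPKM). The subunits of the interferon-inducible activator ring, Psme1 (149 FPKM) and Psme2 (151 FPKM), were as abundant as beta ring genes, whereas in the same role group the nuclear activator Psme3 (16.8 FPKM), the large activator Psme4 (17.3 FPKM) and the inhibitor Psmf1 (9.24 FPKM) were not. The immunoproteasome subunits were at 38.3 (Psmb8), 21.6 (Psmb9) and 35.8 FPKM (Psmb10). The lowest member tested was Psma8, at 0.640 FPKM.

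**Figure D1:**
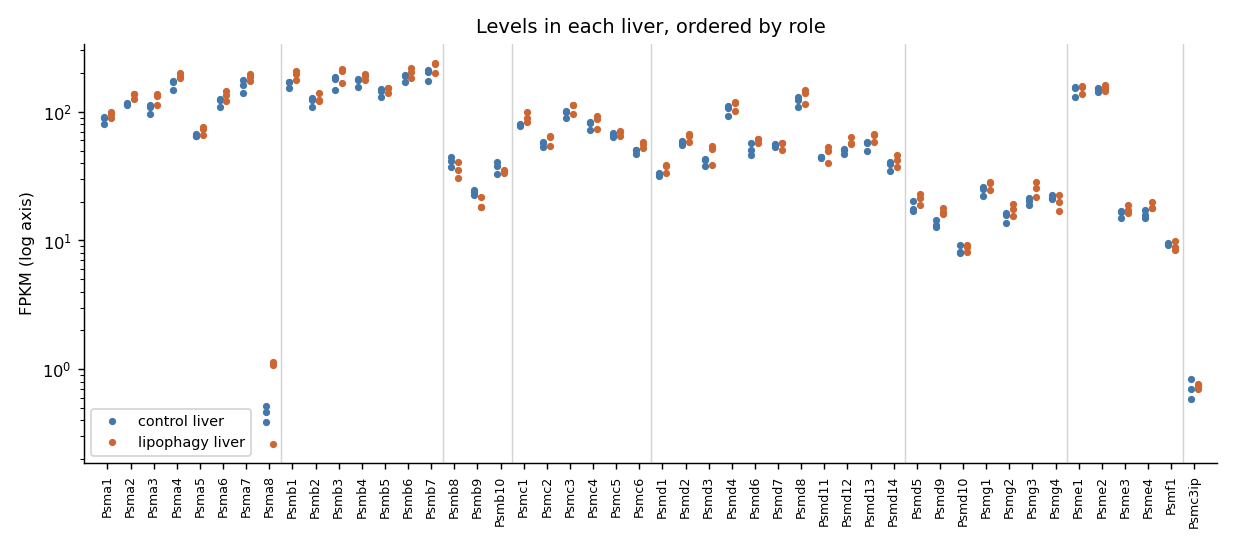
FPKM (log axis) of the 48 tested proteasome rows in each liver, control livers in blue and lipophagy livers in orange, ordered by role with grey lines between roles. Beta ring genes lie at 124 to 211 FPKM on average and assembly chaperones at 8.61 to 25.8 FPKM, while Psma8 and Psmc3ip lie near 1 FPKM and below.

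The comparison of lipophagy with control livers asked whether expression differed once droplets were directed to autophagy. None of the 48 tested rows passed an adjusted p of 0.05 (limma, Benjamini-Hochberg over all 11493 tested genes), where 0.0261% of all tested genes did. With FPKM as deposited, 40 of the 43 constitutive members had a log2 change above 0, against 54.5% of all tested genes, and their median was 0.14 against 0.020 over all tested genes and 0.098 over the 6182 tested genes averaging 5 FPKM or more, of which 4442 were above 0. All 3 immunoproteasome subunits were on the other side, with a median of -0.21. The constitutive direction depended on the scaling: with the same FPKM sum in every liver, 16 members were above and 27 below 0 (median -0.037), and with quantile normalization 23 were above and 20 below 0 (median 0.0043). The same sum moved the median of all tested genes from 0.020 to -0.13, and relative to that median the constitutive members were still higher by 0.093, with 37 of 43 above it. With quantile normalization they were not, at -0.0032 relative to the median of all tested genes and with 21 of 43 above it. Over the 6182 tested genes averaging 5 FPKM or more, the median was -0.074 with the same sum, nearer to the -0.037 of the members. With quantile normalization it was 0.0089. The immunoproteasome median was -0.40 with the same sum and -0.34 with quantile normalization. By role, the same sum gave medians of 0.029 for the alpha ring (Psma8 included), -0.044 for the constitutive beta ring, -0.051 for the ATPases, -0.037 for the non-ATPases, -0.00076 for the assembly chaperones and -0.14 for the activators and inhibitor. Quantile normalization gave 0.040, -0.035, -0.025, -0.0022, 0.085 and -0.089 in that order, so that the alpha ring alone kept a positive median under both.

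Without the adjustment, 8 constitutive members had a p below 0.05 and were higher in lipophagy livers, where 11.5% of all tested genes did so, and 1 immunoproteasome subunit was lower, where 7.97% did (limma). All values of the 3 lipophagy livers lay above all control values in 11 constitutive members, against 15.4% of tested genes, and below them in Psmb9, against 10.8%. Among the 6182 tested genes averaging 5 FPKM or more, a level that all constitutive members reached, 1168 had an unadjusted p below 0.05 and were higher and 1516 were higher without overlap, so that the members are read against a background in which such patterns were common. The 8 members were Psma2, Psma3, Psma4, Psmb1, Psmd6, Psmd9, Psmd12 and Psmg3. Without lipophagy liver 3 the count was 22 (23 with Psma8), and without control liver 1, control liver 3, lipophagy liver 1 or lipophagy liver 2 it was 2, 5, 1 and 2.

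**Figure D2:**
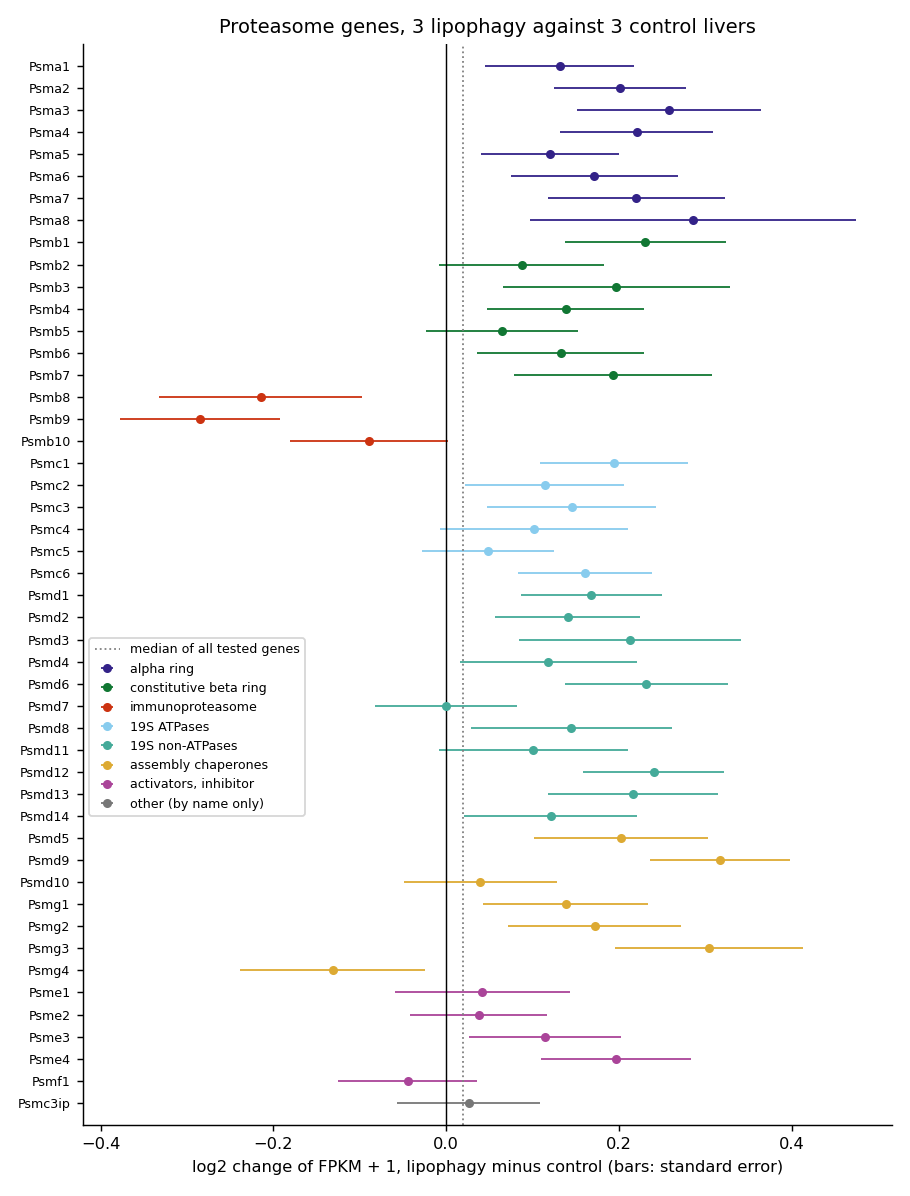
Log2 change of FPKM + 1 (lipophagy minus control) of the 48 tested proteasome rows, with bars of 1 standard error and colours for the roles. With FPKM as deposited most constitutive members lie right of 0 around their median of 0.14, which is -0.037 with the same FPKM sum, and Psmb8, Psmb9 and Psmb10 lie left of it.

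The constitutive members varied together from liver to liver, and the livers of a group differed. The summed level of the 43 genes was 3226, 3639 and 3634 FPKM in control livers 1, 2 and 3 and 4109, 4008 and 3563 FPKM in lipophagy livers 1, 2 and 3. Lipophagy livers 1 and 2 were above every control liver, and lipophagy liver 3 was within the control livers. Control liver 1 held the lowest value of 33 of the 43 members, and the highest value was in lipophagy liver 1 for 26 and in lipophagy liver 2 for 17. Lipophagy liver 1 lay above the control range in 41 members and lipophagy liver 2 in 37, but lipophagy liver 3 in 13, with 26 members inside that range and 4 below it. On the log2 scale the mean deviation over the members for control livers was -0.072 ± 0.075 (SD, n = 3), and for lipophagy livers it was 0.072 ± 0.10 (SD, n = 3). The 2 means mirror each other because each gene was centred on its mean over all livers, and their difference was 0.14. As a share of all FPKM the constitutive members made up 0.518%, 0.554% and 0.533% in control livers and 0.525%, 0.546% and 0.502% in lipophagy livers, so that the shares of the groups overlapped.

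**Figure D3:**
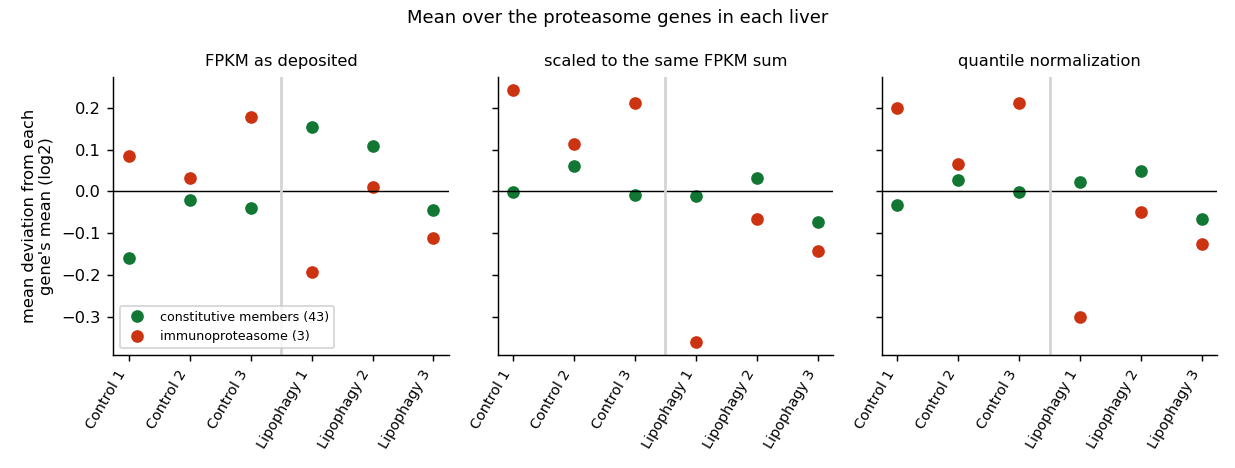
Mean deviation from each gene's mean (log2) in every liver, for the 43 constitutive members (green) and the 3 immunoproteasome subunits (red), with FPKM as deposited, with the same FPKM sum and with quantile normalization. The constitutive mean runs from -0.16 in control liver 1 to 0.15 in lipophagy liver 1 as deposited and stays between -0.073 and 0.062 with the same sum, while the immunoproteasome means of the groups do not overlap in any of the 3 panels, with the control livers on top.

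Across the 6 livers the median correlation between a constitutive member and the mean of the other members was 0.89, a description over 6 points that share library, depth and scaling. Psma6, an alpha ring gene, followed the mean most closely (0.99). The assembly chaperone Psmg4 (0.13) and the inhibitor Psmf1 (0.17) followed it least. Outside the proteasome, the most alike of 6136 tested genes averaging 5 FPKM or more were Esd (0.999), which encodes an esterase, Ccdc107 (0.997) and Gpn2 (0.997). Of the genes searched, 23.5% had a correlation of at least 0.8 and 11.1% one of at least 0.9. Among the 43 constitutive members, 32 had a correlation of at least 0.8 with the mean of the others.

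In the alpha ring the 7 constitutive genes had log2 changes from 0.12 to 0.26. Psma3 was at 95.7, 109 and 113 FPKM in control livers and 137, 132 and 112 FPKM in lipophagy livers, a log2 difference of 0.26 (SE, standard error, 0.11, adjusted p = 0.244, limma). Lipophagy livers 1 and 2 were above the controls and the other lay inside their range, and the estimate was 0.077 with the same sum. Psma5 was at 65.3, 67.4 and 65.1 FPKM in control livers and 73.4, 75.7 and 66.4 FPKM in lipophagy livers (log2 change 0.12, SE 0.080, adjusted p = 0.425, limma), and its sign turned with the same sum (-0.061) and with quantile normalization (-0.024). Psma8 had the largest estimate of the ring (0.29, SE 0.19, adjusted p = 0.419, limma), from 0.390, 0.465 and 0.516 FPKM in control livers and 1.07, 1.14 and 0.263 FPKM in lipophagy livers. The lowest and the highest value of this testis gene were both in lipophagy livers. Its estimate was 0.53 when lipophagy liver 3 was left out, 0.15 when liver 2 of that group was and 0.17 when liver 1 was.

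In the constitutive beta ring all 7 genes were above 0 as deposited, and 3 of 7 with the same sum or with quantile normalization. Psmb1, a subunit without a proteolytic site, was at 152, 172 and 170 FPKM in control livers and 207, 196 and 177 FPKM in lipophagy livers. The groups did not overlap, and the log2 change was 0.23 (SE 0.093, adjusted p = 0.240, limma), and 0.048 with the same sum. Psmb5, with the chymotrypsin-like site, was at 131, 151 and 144 FPKM in control livers and 154, 152 and 139 FPKM in lipophagy livers. This was the least change of the ring (0.064, SE 0.088, adjusted p = 0.709, limma), and it was -0.12 with the same sum and -0.11 with quantile normalization. Without control liver 1 it was 0.0065, and without control liver 2 it was 0.11. Leaving out lipophagy liver 1 gave 0.037 and leaving out lipophagy liver 3 gave 0.11. Psmb6, with the caspase-like site, was at 169, 190 and 193 FPKM in control livers and 218, 204 and 185 FPKM in lipophagy livers, a log2 difference of 0.13 (SE 0.096) that became -0.050 with the same sum and -0.035 with quantile normalization. Psmb7, with the trypsin-like site and the highest mean of the members (211 FPKM), was at 172, 213 and 204 FPKM in control livers and 236, 239 and 199 FPKM in lipophagy livers (log2 change 0.19, SE 0.11), and its estimate was 0.011 with the same sum. Without control liver 1 the estimates of Psmb6 and Psmb7 were 0.072 and 0.10. Leaving out lipophagy liver 1 gave 0.077 for Psmb6. In these catalytic genes lipophagy liver 3 lay within the control range.

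The immunoproteasome subunits differed from these in sign. Psmb9, the counterpart of Psmb6, was at 24.9, 22.7 and 23.8 FPKM in control livers and 18.1, 21.8 and 18.3 FPKM in lipophagy livers. Each lipophagy liver was below each control liver, and the log2 change was -0.29 (SE 0.092, adjusted p = 0.184, limma). Psmb8, the counterpart of Psmb5, was at 37.3, 41.7 and 44.4 FPKM in control livers and 30.4, 40.5 and 35.4 FPKM in lipophagy livers. Lipophagy liver 2 lay within the controls, and the log2 change was -0.21 (SE 0.12, adjusted p = 0.342, limma). It was -0.11 without lipophagy liver 1 and -0.31 without lipophagy liver 2. Psmb10, the counterpart of Psmb7, was at 37.7, 33.0 and 40.5 FPKM in control livers and 34.8, 33.7 and 35.4 FPKM in lipophagy livers. All lipophagy values of Psmb10 lay inside the control range (log2 change -0.089, SE 0.091, adjusted p = 0.602, limma), and the estimate was -0.17 without control liver 2 and -0.025 without control liver 3. With the same sum the log2 changes of Psmb8, Psmb9 and Psmb10 were -0.40, -0.47 and -0.27, with adjusted p of 0.116, 0.0690 and 0.143 (limma).

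Relative to its constitutive counterpart each immunoproteasome subunit was lower on average in lipophagy livers, a ratio within a liver that does not depend on the total. The level of Psmb8 was 28.5%, 27.6% and 30.8% of that of Psmb5 in control livers and 19.7%, 26.7% and 25.4% in lipophagy livers. The groups did not overlap, but the gap between them was 0.879 percentage points. The level of Psmb9 was 14.7%, 11.9% and 12.3% of that of Psmb6 in control livers and 8.32%, 10.7% and 9.88% in lipophagy livers, again without overlap. The level of Psmb10 was 21.9%, 15.5% and 19.8% of that of Psmb7 in control livers and 14.7%, 14.1% and 17.8% in lipophagy livers, where the groups overlapped. The log2 ratios differed by -0.28 for Psmb8 to Psmb5 and -0.42 for Psmb9 to Psmb6 (two-sided exact permutation test, p = 0.1 each, 0.15 adjusted over the 3 ratios). For Psmb10 to Psmb7 the difference was -0.28 (exact permutation test, p = 0.2, adjusted 0.2). With 3 livers against 3 the smallest p this test allows is 0.1, so none of the ratios could pass 0.05.

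**Figure D4:**
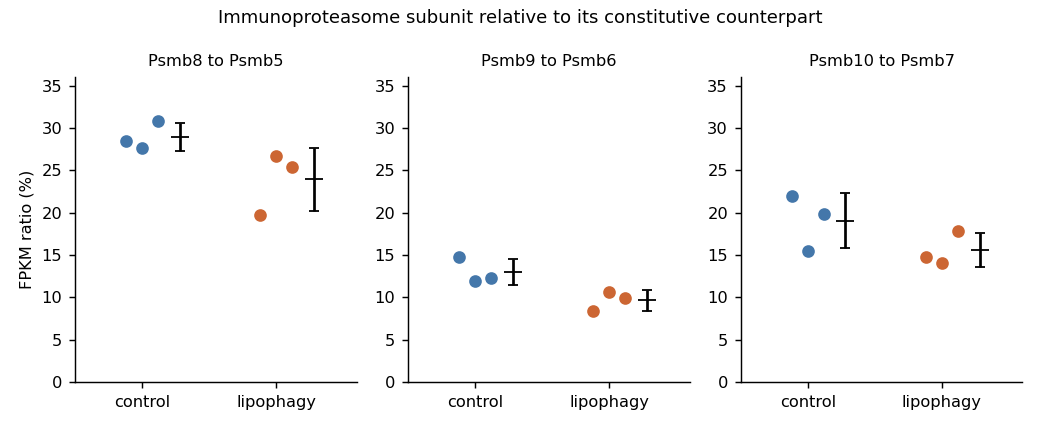
FPKM of each immunoproteasome subunit as a percentage of its constitutive counterpart in every liver, with the mean and SD of the 3 livers as a black bar. Control livers lie at 27.6% to 30.8% and lipophagy livers at 19.7% to 26.7% for Psmb8 to Psmb5, without overlap, and the groups overlap for Psmb10 to Psmb7.

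In the 19S cap, the 6 ATPases had log2 changes from 0.049 to 0.19 as deposited, and 1 of 6 was above 0 with the same sum. Psmc1, which helps to open the gate of the core, was at 78.1, 81.0 and 78.9 FPKM in control livers and 99.5, 89.7 and 84.0 FPKM in lipophagy livers, without overlap (log2 change 0.19, SE 0.086, adjusted p = 0.262, limma), and the estimate was 0.013 with the same sum. Psmc5 was at 64.0, 66.5 and 68.1 FPKM in control livers and 69.6, 71.4 and 64.7 FPKM in lipophagy livers (log2 change 0.049, SE 0.077), and it was at -0.13 with the same sum and -0.099 with quantile normalization. Leaving out single livers gave Psmc5 a range from 0.020 (lipophagy liver 2) to 0.090 (lipophagy liver 3), with 0.025 for control liver 1, and Psmc1 one from 0.13 (lipophagy liver 1) to 0.25 (lipophagy liver 3). Among the 11 non-ATPases 10 were above 0 as deposited, 4 with the same sum and 5 with quantile normalization. Psmd12, a lid subunit, was at 47.4, 51.6 and 50.0 FPKM in control livers and 63.5, 56.2 and 57.0 FPKM in lipophagy livers. Its groups did not overlap, and its log2 change was 0.24 (SE 0.082, adjusted p = 0.198, limma), or 0.061 with the same sum. Psmd7, the partner of the deubiquitinating subunit Psmd14, was at 53.0, 56.1 and 55.4 FPKM in control livers and 56.8, 57.5 and 50.4 FPKM in lipophagy livers, with a log2 difference of -0.00018 (SE 0.082). The estimate of Psmd7 was -0.18 with the same sum and -0.15 with quantile normalization. Psmd14 itself had a log2 difference of 0.12 (SE 0.10), and the ubiquitin receptor Psmd4 one of 0.12 (SE 0.10), and both were below 0 with the same sum and with quantile normalization.

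Assembly chaperones held both ends of the constitutive range. Psmd9, which assists the ATPase ring, was at 13.1, 12.8 and 14.3 FPKM in control livers and 18.0, 16.2 and 16.7 FPKM in lipophagy livers. All lipophagy livers were higher, with a log2 difference of 0.32 (SE 0.081), an unadjusted p of 0.00445 and an adjusted p of 0.144 (limma). Its estimate was 0.15 with the same sum and 0.24 with quantile normalization. Psmg4, which acts with Psmg3 in building the alpha ring, was at 21.5, 22.7 and 21.0 FPKM in control livers and 22.8, 19.8 and 17.1 FPKM in lipophagy livers (log2 change -0.13, SE 0.11, adjusted p = 0.510, limma). Psmg3 was at 20.3, 21.2 and 18.97 FPKM in control livers and 28.7, 25.4 and 21.6 FPKM in lipophagy livers, without overlap (log2 change 0.30, SE 0.11, adjusted p = 0.205, limma). With the same sum Psmg3 was at 0.13 and Psmg4 at -0.31. The estimate of Psmg4 was -0.032 when lipophagy liver 3 was left out and -0.23 when lipophagy liver 1 was. The partners in this pair thus had estimates of opposite sign, a difference that was not tested.

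The 5 alternative activators and inhibitor had a median log2 change of 0.042 as deposited. Psme1 and Psme2, which interferon induces along with the immunoproteasome, had log2 differences of 0.042 (SE 0.10) and 0.038 (SE 0.079), and -0.14 each with the same sum. Psme4 was at 14.97, 17.4 and 15.8 FPKM in control livers and 18.0, 19.9 and 17.8 FPKM in lipophagy livers, without overlap (log2 change 0.20, SE 0.087, adjusted p = 0.261, limma), and the estimate was 0.024 with the same sum. Psmf1 was at 9.48, 9.42 and 9.27 FPKM in control livers and 9.89, 8.91 and 8.48 FPKM in lipophagy livers (log2 change -0.044, SE 0.081). Its estimate was -0.22 with the same sum and -0.089 with quantile normalization. Leaving out single livers gave Psmf1 a range from -0.10 (lipophagy liver 1) to -0.00035 (lipophagy liver 3).

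Partners of the proteasome outside the name rule spread around 0. Of 26 such genes tested, 17 were above 0 as deposited (54.5% of all tested genes were), with a median of 0.059. Above 0 were 6 with the same sum (median -0.10) and 11 with quantile normalization (median -0.022). As deposited 5 were higher with an unadjusted p below 0.05, against 11.5% of all tested genes, and 0 were lower with it (0 had an adjusted p below 0.05, limma). Pomp, the chaperone that matures the beta ring, was at 188, 215 and 222 FPKM in control livers and 242, 227 and 205 FPKM in lipophagy livers (log2 change 0.11, adjusted p = 0.558, limma), and its estimate was -0.073 with the same sum and -0.090 with quantile normalization. Ube3c, a ubiquitin ligase of the proteasome, had the largest estimate, at 5.67, 5.91 and 5.40 FPKM in control livers and 8.36, 7.23 and 7.14 FPKM in lipophagy livers (0.36, adjusted p = 0.134, limma). Zfand5, which encodes a zinc finger protein that binds the proteasome, had the lowest, at 4.54, 4.94 and 5.11 FPKM in control livers and 4.18, 4.24 and 4.34 FPKM in lipophagy livers (-0.16, adjusted p = 0.295, limma). In both genes the groups did not overlap.

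Genes of the NFE2L1 pathway did not share a direction, with 5 of 11 tested genes above 0 and a median of -0.013 as deposited, 2 above 0 with the same sum (median -0.17) and 6 with quantile normalization (median 0.010). Nfe2l1 was at 16.9, 20.2 and 19.9 FPKM in control livers and 15.6, 20.2 and 22.0 FPKM in lipophagy livers, with overlapping groups (log2 change 0.013, or -0.16 with the same sum and -0.075 with quantile normalization, adjusted p = 0.966 as deposited, limma). Nfe2l2, which encodes the regulator of antioxidant genes, was at 42.2, 45.1 and 42.4 FPKM in control livers and 37.1, 33.7 and 37.3 FPKM in lipophagy livers, and each lipophagy liver was lower (-0.26, adjusted p = 0.170, limma). Syvn1, a ubiquitin ligase of the endoplasmic reticulum, had the largest estimate (0.71, adjusted p = 0.148, limma), at 16.2, 23.1 and 22.2 FPKM in control livers and 39.0, 25.5 and 38.8 FPKM in lipophagy livers.

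Interferon and MHC class I genes lay on the side of the immunoproteasome. Of 22 tested, 20 were below 0, against 5234 of all 11493 tested genes. Their median log2 change was -0.24 as deposited, -0.42 with the same sum and -0.31 with quantile normalization. As deposited 10 were lower with an unadjusted p below 0.05, against 7.97% of all tested genes, while 1 was higher (0 had an adjusted p below 0.05, limma). In 12 of the 22 every lipophagy value was under every control value, against 10.8% of all tested genes. This list, like the others, was drawn up with earlier results of these data known. Gbp3, an interferon-induced GTPase, was the lowest, at 5.05, 4.86 and 5.12 FPKM in control livers and 2.62, 3.21 and 3.86 FPKM in lipophagy livers (-0.52, adjusted p = 0.134, limma). Erap1, which trims peptides in the endoplasmic reticulum, was the highest (0.21, adjusted p = 0.231, limma), at 13.2, 11.96 and 11.5 FPKM in control livers and 13.7, 15.1 and 14.0 FPKM in lipophagy livers. Tap1, whose annotated exons overlap those of Psmb9, was at a log2 change of -0.30 (adjusted p = 0.204, limma), and reads of the pair cannot be told apart there unless strand was used in counting, which is not given in the sources used here. Leukocyte markers lay on the same side, with a median of -0.15 over the 17 tested (-0.34 with the same sum, -0.23 with quantile normalization), Coro1a the lowest (-0.44) and the Kupffer cell gene Clec4f the highest (0.17, but -0.010 with the same sum). Stellate cell and bile duct markers, averaging 0.828 to 4.88 FPKM, had a median of -0.33, with 9 of 10 below 0. Their medians were -0.50 with the same sum and -0.26 with quantile normalization. Below 0 lay 5234 of all 11493 tested genes but 1740 of the 6182 averaging 5 FPKM or more, so low genes were below 0 more often. The part of leukocyte content in the lower immunoproteasome levels was not tested.

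**Figure D5:**
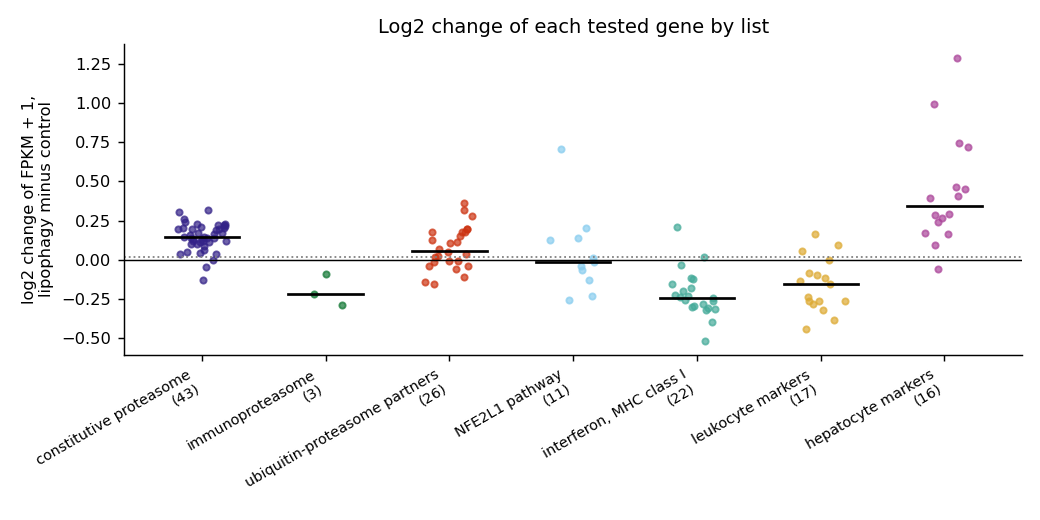
Log2 change of FPKM + 1 (lipophagy minus control) of each tested gene by list, with the median as a black line, the median of all tested genes as a dotted line and the number of genes in parentheses. The medians as drawn, each followed by that with the same FPKM sum, are 0.14 and -0.037 for the constitutive proteasome, -0.21 and -0.40 for the immunoproteasome, -0.24 and -0.42 for interferon and MHC class I genes, -0.15 and -0.34 for leukocyte markers, and 0.34 and 0.16 for hepatocyte markers.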

How the data were processed

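Total RNA of whole liver was made into stranded poly(A) libraries and sequenced in 100 bp paired-end mode. The submitters' processing notes list TopHat2 2.0.13, Bowtie2 2.2.3, SAMtools 0.1.19, Cufflinks 2.2.1 and mm10, and the annotation and strand setting are not given in the sources used here. The authors deposited FPKM per gene symbol and liver, scaled to transcript length and mapped fragments, with replicates not pooled.

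Groups and replicate numbers came from sample titles. Values were taken as log2(FPKM + 1), which understates changes of low genes. Genes averaging 0.5 FPKM or more (11493) were fitted with limma 3.58.1 in R 4.3.3 (intensity trend, no covariates, two-sided, Benjamini-Hochberg over all of them). The fit was also run on simulated data, but with changes larger than those of the members, so that run says nothing of changes this small. Ratios were compared with an exact permutation test in scipy 1.17.1. With nothing said of separate cultures or litters, p-values measure the spread between these livers. Depth could not be recovered, since 26.5% to 56.1% of low values lay within 0.1% of whole steps. Exons of 13 tested members overlap another annotated gene, among them Psmb5, Psmb7, Psmb8, Psmb9 and Psme1.

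The members, role groups and gene lists were chosen with earlier results of these data known. Named members were the immunoproteasome subunits, their counterparts, the ends of each role group and the highest and lowest levels; others given with values (Psma3, Psma4, Psma6, Psmd4, Psmd14, Psme1, Psme2, Psme3, Psmg3, Cd3g, Tap1) were added after their values were seen.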

Additional observations from a re-analysis of the deposited data

How the results depend on the processing

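Direction of the constitutive members depended on the scaling of the livers. Their median log2 change was -0.037 with the same FPKM sum (chosen after seeing the data) and 0.0043 with quantile normalization, against 0.14 as deposited; scaling to the same median gave 0.15. The immunoproteasome median was -0.40 and -0.34 under these. Psma5, Psmb5, Psmb6 and Psmc5 were at -0.061, -0.12, -0.050 and -0.13 with the same sum and at -0.024, -0.11, -0.035 and -0.099 with quantile normalization, and Psmd7 was at 0.0015 with the same median; the cause was not tested. Constitutive members higher with an unadjusted p below 0.05 numbered 8 as deposited, 0 with the same sum and 1 with quantile normalization. All tested genes with an adjusted p below 0.05 numbered 3, and 1 without the filter and 104 with the same sum (limma); 0 members passed under any alternative, the lowest adjusted p being 0.0690 for Psmb9 with the same sum.

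When single livers were left out, the constitutive median ranged from 0.10 to 0.20, the immunoproteasome median from -0.31 to -0.11, the members higher with an unadjusted p below 0.05 from 1 to 23, members past the adjusted threshold from 0 to 0, and all genes past it from 1 to 11. The log2 ratios ranged from -0.36 to -0.15 (Psmb8 to Psmb5), -0.49 to -0.32 (Psmb9 to Psmb6) and -0.42 to -0.17 (Psmb10 to Psmb7), and Psmd7 ranged from -0.034 to 0.060. The replicate numbers were not taken as pairs. Deviations from the group means correlated at 0.25, 0.23 and -0.057 for numbers 1, 2 and 3, and at -0.39 to 0.25 between unlike numbers. With 3 livers in a group these values cannot settle whether the numbers pair the livers. With the replicate block 43 genes and 0 members had an adjusted p below 0.05, and 3 members were higher with an unadjusted p below 0.05. Other pseudocounts and filters and limma without the trend left the members' directions as they were, with 8 to 11 members higher with an unadjusted p below 0.05 (11 without the filter, 9 with a filter of 0.1 FPKM).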
